A study of Mus musculus with 8 samples.

Results

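The 10 genes described here belong to the Hippo pathway and its output through YAP and TEAD: the coactivators Yap1 and Wwtr1, the DNA-binding factor Tead1, the kinase Lats2, the YAP-binding proteins Amotl2 and Ptpn14, and the target genes Ctgf, Cyr61, Ankrd1 and Axl. They were chosen by name, all 10 were found among the 16464 genes of the deposited table, and 9 passed a filter on low values and were tested. Amotl2, Ptpn14, Lats2 and Axl are known both for their own roles and as genes that YAP and TEAD induce. Ctgf and Cyr61 are the older symbols of Ccn2 and Ccn1.

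RNA was sequenced from the capsule behind the knee joint of wild type C57BL/6 male mice, labelled 10 weeks old. In 4 libraries the mice were naive, and in the other 4 a cast had fixed the knee at 140 degrees over 2 weeks. No allele or other agent is named for either group. The series text gives 8 weeks as the age of the immobilised mice, taken here as the age at the start of the cast. No label says that each library came from a separate mouse, and a p-value here speaks of the spread between libraries alone, which may in part be technical.

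In the Hippo pathway, the kinases Stk3 and Stk4 with the adaptor Sav1 activate Lats1 and Lats2, which with Mob1a and Mob1b phosphorylate YAP and its relative TAZ, the product of Wwtr1. Phosphorylated YAP and TAZ are held in the cytoplasm or degraded. Otherwise they enter the nucleus, bind TEAD factors and raise the transcription of genes such as Ctgf and Cyr61. Stretch, a stiff matrix and tension on the actin cytoskeleton are known to favour the nuclear form in fibroblasts and other cells of connective tissue. Regulation by phosphorylation and location is not seen in RNA levels.

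TEAD factors bind the short sequence GGAATG, read as CATTCC on the other strand. RefSeq promoter windows (build GRCm38.p6) were found for 8 of the 10 members, and not for Ctgf and Tead1. In the 250 bases before the start site, 7 of the 8 held the element on at least 1 strand, and Lats2 did not. Of all 27025 genes with such windows, 14.4% held it, as did 12.6% of all 32851 windows. The stretches around it are printed below for the members that fell (Axl, Ptpn14, Amotl2, Yap1) and for a pair that did not pass the test (Cyr61, Wwtr1), in the direction of the gene, with the element in capitals.
Axl, chr7:25788925-25788983, minus strand, element at -233 from the start: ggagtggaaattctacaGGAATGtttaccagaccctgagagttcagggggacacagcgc
Ptpn14, chr1:189728086-189728163, plus strand, element at -146: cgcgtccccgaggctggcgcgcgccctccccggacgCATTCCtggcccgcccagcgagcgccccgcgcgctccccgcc
Amotl2, chr9:102717727-102717756, plus strand, element at -65: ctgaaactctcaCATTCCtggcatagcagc
Yap1, chr9:8004696-8004773, minus strand, element at -141: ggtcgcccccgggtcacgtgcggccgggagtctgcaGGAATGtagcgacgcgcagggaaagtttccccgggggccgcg
Cyr61, chr3:145650047-145650124, minus strand, element at -103: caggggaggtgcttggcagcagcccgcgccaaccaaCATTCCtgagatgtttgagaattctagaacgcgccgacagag
Wwtr1, chr3:57576005-57576082, minus strand, element at -136: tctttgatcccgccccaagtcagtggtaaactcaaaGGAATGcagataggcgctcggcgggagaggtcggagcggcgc

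The element was present both in members that fell and in members that did not pass the test. Ankrd1, whose reads were near the floor, held it at -210 and again at -123. The AP-1 element TGANTCA, bound by Fos and Jun proteins, was in 6.75% of all windows, and the CArG box, bound by SRF, in 1.47%. Neither was found in the windows of the 8 members. The stretch shown for Amotl2 lies within an annotated exon of a longer transcript and is kept to 30 bases. A match is a description of these letters and not a measured binding site, and a window without a match says only that the letters are not in it.

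In the cast group 5 members were lower and 0 were higher: in order of the adjusted p, Axl, Ptpn14, Ctgf, Amotl2 and Yap1. The limma-trend fit was made on log2(normalised count + 1) over all 15120 genes with a mean normalised count of at least 0.5, with Benjamini-Hochberg adjustment and a threshold of 0.05. It called 5 of the 9 tested members lower and 0 higher. Of all tested genes, 12% were called in either direction and 5.46% were called lower. In the same 5 members every cast value lay below every naive value, an arrangement found in 9.39% of all tested genes. The reverse, every cast value above every naive value, was found in 1684 of the 15120. The median log2 difference of all tested genes was 0.07, and 44.3% of them were negative. In bulk tissue, fewer cells of a type and less RNA per cell cannot be told apart.

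**Figure D1:**
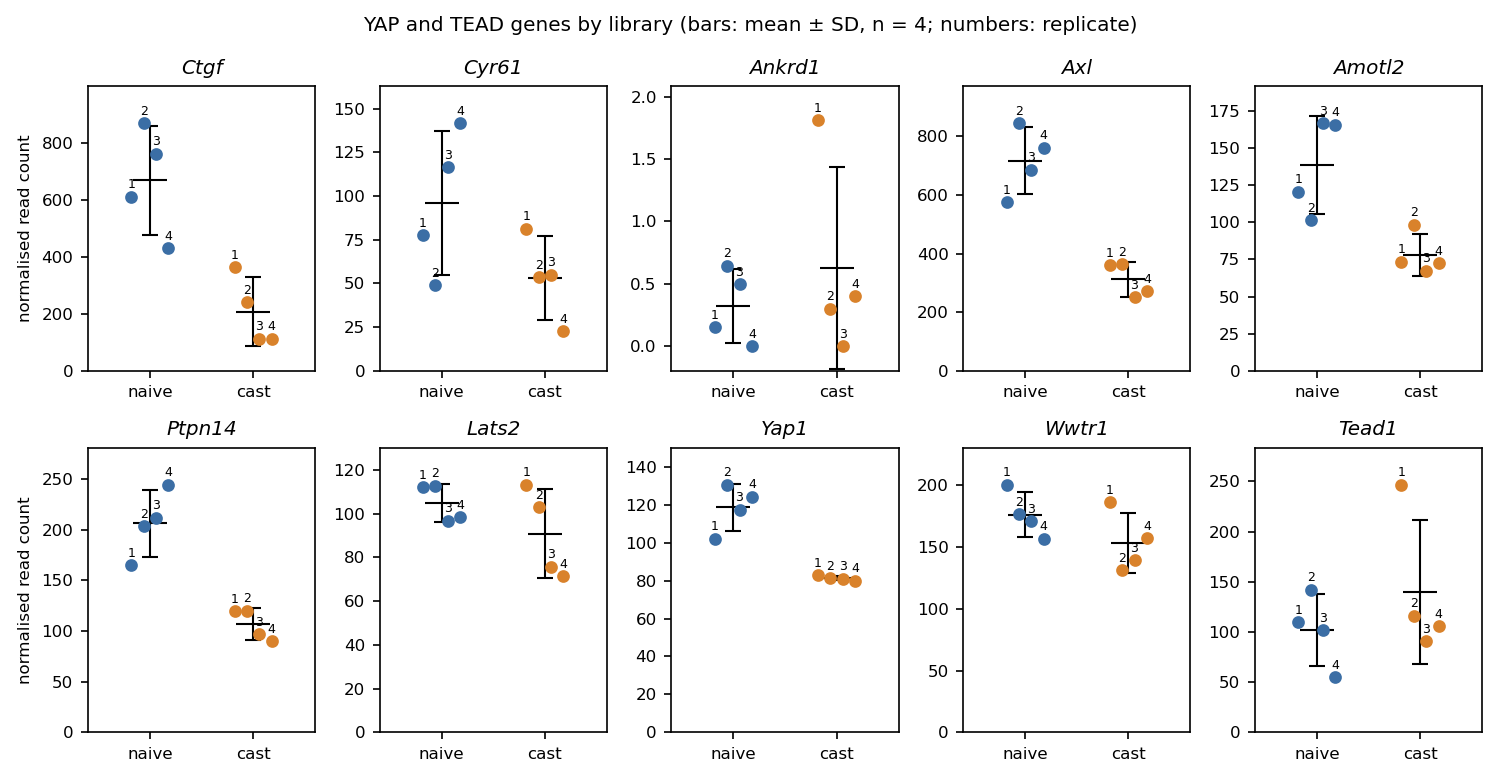
Normalised read counts (y axis, linear, a scale of its own for each gene) of the 10 members in the 4 naive and 4 cast libraries. Each point is 1 library and the bars show mean and SD; Ctgf, Axl, Amotl2, Ptpn14 and Yap1 have cast points that all lie below the naive points, and Tead1 has a single cast point at 247.

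The libraries held 5956148 to 7381255 recovered reads, except naive replicate 4 with 1503880, in which 2264 genes were at 0 against 330 to 608 in each of the others. Summed over the 4 libraries of a group, reads ran from 2140 for Amotl2 in cast to 14701 for Ctgf in naive libraries among the members other than Cyr61, with 1741 naive and 1424 cast reads, and Ankrd1, with 8 and 16. Fibroblast markers were abundant in both groups, as the labelled tissue has, with summed levels of 39785 to 72630 in naive and 28655 to 50993 in cast libraries. Markers of other tissues and cell types differed in level between libraries. The counts of markers below stand beside 984 genes called higher and 826 (5.46%) called lower of all 15120 tested. Of 15 tested skeletal muscle markers 6 were lower, with summed levels of 226 to 6272 in naive and 82.9 to 814 in cast libraries. All 15 log2 differences were negative, with a median of -3.56, and all 15 had an unadjusted limma p under 0.05. In at least 1 library 1 marker (Mb) was at 0. The count of 6 past the threshold rested on single libraries. It was 15 without naive replicate 4, 9 without cast replicate 1, 5 without cast replicate 4 and 4 without naive replicate 1. It was 3 without naive replicate 2 or 3 or cast replicate 2, 1 without cast replicate 3 and 0 without cast replicates 1 and 2. With edgeR it was 10 and with DESeq2 12. Of 9 neutrophil markers 8 were higher, with sums of 23.1 to 66.3 and 688 to 5954. Of 8 fat cell markers 4 were lower, with sums of 3467 to 4289 and 1546 to 4470, and 1 was lower without naive replicate 2 or 3 or cast replicate 3. None of 10 endothelial markers passed the limma test, 1 had an unadjusted p under 0.05, edgeR called 0 and DESeq2 called 1 (Emcn), and sums were 1074 to 1598 and 1164 to 1574. With the mean muscle marker level as a covariate, limma called 2769 genes higher and 1336 lower in the whole table. Without it these were 984 and 826. The covariate's value is given beside a member where it changed the call, and beside some of the other genes. With it 1 endothelial marker passed, Emcn (2.23, adjusted p = 0.00591). The part of the other tissues in the results below was not tested.

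Yap1, the coactivator that gives the pathway its readout, fell, and its relative Wwtr1 did not pass the test. Yap1 had normalised counts of 102, 131, 117 and 124 in naive replicates 1 to 4 and 82.9, 81.2, 81.0 and 80.0 in cast replicates 1 to 4. The groups did not overlap, and the cast libraries lay within a few counts of each other. The mean went from 119 ± 12.2 to 81.3 ± 1.20 (SD, n = 4 each), 1.46-fold lower, with a log2 difference of -0.53 (95% interval -0.85 to -0.21, limma adjusted p = 0.0392). This call was lost in 12 of 22 alternatives, among them quantile normalisation (adjusted p = 0.0529), the muscle marker level as a covariate (0.056) and a fit without naive replicate 2 or 3 or any 1 of cast replicates 1 to 4 (0.061 to 0.117), while the log2 difference stayed between -0.49 and -0.54 without any of those 6 libraries.

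Wwtr1 had normalised counts of 200.3, 176, 171 and 157 in naive and 186, 131, 139 and 157 in cast libraries, and the groups overlapped. Its log2 difference was -0.20 (95% interval -0.58 to 0.17, limma adjusted p = 0.485). The log2 ratio of Yap1 to Wwtr1 differed by -0.33 between groups, with a two-sided exact permutation p of 0.143 and 0.238 after adjustment over the 10 ratios tested. A different response of the 2 coactivators was therefore not shown. Per kilobase of the longest coding transcript, Wwtr1 stood at 37.5 and Yap1 at 28.4 in naive libraries, and at 32.7 and 19.5 in cast libraries.

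Among the DNA-binding factors, Tead1 was the most abundant and did not pass the test. Its normalised counts were 110, 142, 102 and 55.0 in naive and 247, 116, 90.8 and 105 in cast libraries, so that cast replicate 1 stood above the rest and the other 7 overlapped. The log2 difference was 0.41 (95% interval -0.40 to 1.22, limma adjusted p = 0.521). With the muscle marker level as a covariate the Tead1 estimate was 1.45 (adjusted p = 0.0206). Between groups, Tead1 relative to Wwtr1 differed by 0.61 on the log2 scale (two-sided exact permutation p = 0.143, adjusted 0.238).

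The other TEAD genes were low. Per kilobase, naive levels were 10.3 for Tead1, 4.69 for Tead3, 1.62 for Tead2 and 1.62 for Tead4. Tead3 had a mean normalised count of 13.0 ± 4.76 in naive and 24.2 ± 4.48 in cast libraries (SD, n = 4), a log2 difference of 0.89 that did not pass (limma adjusted p = 0.0603). It passed with array weights (1.12, 0.00179), with edgeR on recovered reads (0.96, 0.036), with DESeq2 (0.95, 0.0127) and without naive replicate 4 (1.09, 0.0092). The log2 difference was 0.84 for Tead2 (adjusted p = 0.188, and 1.02 with 0.0299 under array weights) and 0.15 for Tead4 (0.745).

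Vgll3, a cofactor that binds TEAD at the surface YAP uses, rose. Its normalised counts were 17.0, 17.1, 13.7 and 8.41 in naive and 27.4, 29.7, 27.0 and 28.9 in cast libraries, with no overlap. The mean was 2.01-fold higher, and the 95% interval of the log2 difference ran from 0.49 to 1.52 (limma adjusted p = 0.0219). The Vgll3 call was lost without naive replicate 3 (adjusted p = 0.0583) or cast replicate 2 (0.063), 3 (0.0617) or 4 (0.0522), at log2 differences of 0.98 to 1.02. Vgll4, which competes with YAP for TEAD, had a log2 difference of -0.39 (adjusted p = 0.204). Of the 8 tested coactivators, TEAD factors and Vgll cofactors, 1 rose (Vgll3) and 1 fell (Yap1), beside 12% of all tested genes called in either direction. Their median log2 difference was 0.28, beside 0.07 for all tested genes.

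**Figure D2:**
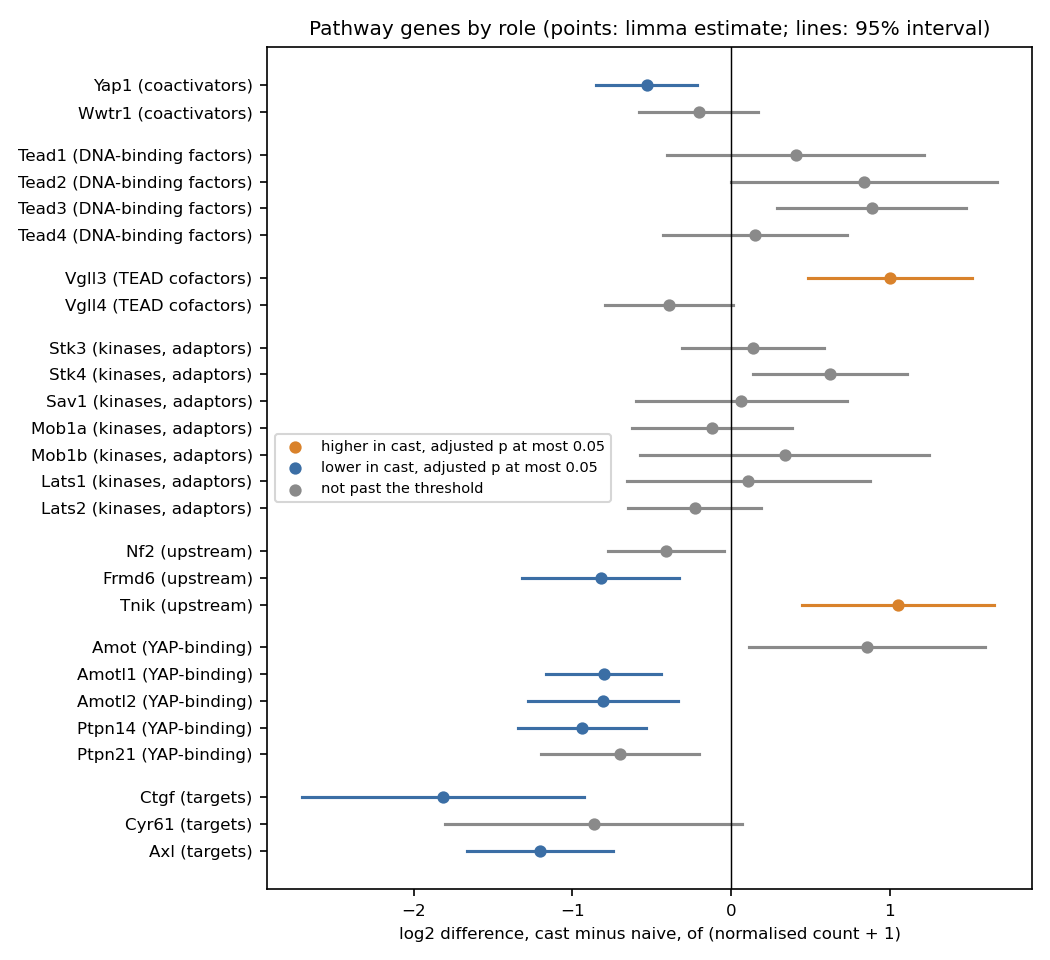
Log2 difference, cast minus naive, of normalised count + 1 (x axis) for pathway genes grouped by role (y axis). Points are limma estimates, lines are 95% intervals and colour marks the adjusted p; the intervals of 6 of the 7 kinases and adaptors include 0, and Amotl1, Amotl2 and Ptpn14 lie below it.

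The kinases at the core of the pathway did not pass the test, apart from the alternatives given with their counts. Lats2, which phosphorylates YAP and TAZ, had normalised counts of 112, 113, 96.7 and 98.3 in naive and 113, 103, 75.8 and 71.4 in cast libraries. Cast replicates 1 and 2 lay within or beside the naive range and cast replicates 3 and 4 below it. The log2 difference of Lats2 was -0.23 (95% interval -0.65 to 0.19, limma adjusted p = 0.481). Lats1, its paralog, had means of 130 ± 53.1 and 128 ± 16.6 (SD, n = 4) and a log2 difference of 0.11 (adjusted p = 0.871). Relative to Lats1, Lats2 differed by -0.34 on the log2 scale (two-sided exact permutation p = 0.6, adjusted 0.6), and by 0.02 without naive replicate 4. Of the 7 core kinases and adaptors, limma called 0, edgeR 0 and DESeq2 0, and 1 had an unadjusted p under 0.05: Stk4, named after its value was seen, at 0.62 (adjusted p = 0.0971). With the muscle covariate 3 of the 7 passed, all higher: Stk4 (1.02, adjusted p = 0.0301), Lats1 (1.1, 0.0423) and Mob1b (1.57, 0.0177). Stk4 also passed with array weights (0.45, 0.0286). The median log2 difference of the 7 was 0.11.

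Upstream of the kinases, 1 of 15 tested regulators rose and 1 fell, near the 12% of all tested genes called in either direction. Their median log2 difference was -0.01. With the muscle covariate 4 rose (Map4k3, Map4k5, Taok1 and Tnik) and 1 fell (Taok2). Tnik, a kinase of the MAP4K family that can act on Lats kinases, went from 17.5 ± 5.90 to 36.2 ± 6.44 normalised counts (SD, n = 4), a log2 difference of 1.05 (limma adjusted p = 0.0335). The Tnik call was lost without naive replicate 1 (0.0641) or 3 (0.0639) or cast replicate 1 (0.0637), 2 (0.0892) or 3 (0.105). Frmd6, a membrane-linked activator of the cascade, went from 180 ± 43.1 to 101 ± 21.5, a log2 difference of -0.82 (adjusted p = 0.0401). The Frmd6 call was lost without naive replicate 1 (0.0937), 2 (0.111) or 3 (0.0523) or cast replicate 1 (0.0824), 3 (0.1) or 4 (0.0966), and with the muscle covariate (0.0962). Of the 12 tested genes that restrain the kinases (the STRIPAK phosphatase complex and LIM-domain proteins such as Ajuba), limma called 0, edgeR 0 and DESeq2 0, and 0 had an unadjusted p under 0.05. Their median log2 difference was -0.03. With the muscle covariate 3 of the 12 passed: Slmap (1.41, adjusted p = 0.0096) and Strn3 (2.22, 0.0185) were higher and Ppp2r1a (-0.61, 0.0468) was lower. Ajuba passed without naive replicate 4 (0.75, 0.0392) and with array weights (0.79, 0.0163).

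Proteins that bind YAP and keep it from the nucleus were lower as far as they passed the test: 4 of 15 fell (Ptpn14, Amotl1, Amotl2 and Ywhag), 0 rose, and the median log2 difference was -0.22. Of all tested genes 5.46% were called lower, and Ptpn14 and Amotl2 are also among the 10 members. Without naive replicate 3 or cast replicate 3 or 4, 2 of the 15 fell, and with the muscle covariate 3 fell and 1 rose (Amot). Ptpn14, a phosphatase that binds YAP through its PPxY motifs, had normalised counts of 165, 204, 212 and 244.5 in naive and 120, 120, 97.1 and 89.8 in cast libraries. The groups were well apart. The log2 difference was -0.94 (95% interval -1.35 to -0.54, limma adjusted p = 0.0107), 1.93-fold lower by the means.

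Amotl2, an angiomotin that ties YAP to cell junctions and actin, had normalised counts of 121, 101, 167 and 166 in naive and 73.5, 98.5, 67.5 and 72.3 in cast libraries. Cast replicate 2 came within a few counts of naive replicate 2, and the rest were further apart. The log2 difference was -0.81 (95% interval -1.28 to -0.33, limma adjusted p = 0.0367), 1.78-fold lower by the means. The Amotl2 call was lost without naive replicate 1 (0.0569) or 3 (0.103) or cast replicate 1 (0.0766), 3 (0.112) or 4 (0.0836), with estimates of -0.71 to -0.86, and the estimate was -0.13 (0.997) with the level of immediate early genes as a covariate. The call was also lost with the replicate block (limma adjusted p = 0.0969).

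Of the angiomotins, Amotl1 fell as Amotl2 did and Amot did not pass. Amotl1 went from 369 ± 16.4 to 213 ± 32.4 normalised counts (SD, n = 4), a log2 difference of -0.80 (limma adjusted p = 0.0131, and 0.0583 with the muscle marker level as a covariate). Amot had a log2 difference of 0.86 (adjusted p = 0.135), with all 4 cast values above all naive values, and passed with the muscle covariate (1.69, 0.0152). Ywhag, a 14-3-3 protein of the kind that holds phosphorylated YAP in the cytoplasm, went from 408 ± 56.3 to 221 ± 67.1, a log2 difference of -0.93 (adjusted p = 0.0394). The Ywhag call was lost without naive replicate 2 (0.104) or 3 (0.0986) or cast replicate 1 (0.0574), 3 (0.092) or 4 (0.073).

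Of the target genes, Ctgf fell and Cyr61 did not pass the test. Ctgf encodes connective tissue growth factor, a secreted matricellular protein known in fibrosis. It had normalised counts of 610, 868, 761 and 431 in naive and 364, 240, 113 and 113 in cast libraries. Cast replicate 1 was the nearest to the naive range and replicates 3 and 4 were the furthest from it. The mean went from 668 ± 190 to 207 ± 120 (SD, n = 4), 3.22-fold lower, with a log2 difference of -1.82 (95% interval -2.71 to -0.92, limma adjusted p = 0.0182). Ctgf missed the threshold when naive replicate 2 (-1.67, 0.0573) or 3 (-1.74, 0.0546) or cast replicate 3 (-1.58, 0.0588) was left out, and the estimate was -1.03 (0.176) with the muscle marker level as a covariate.

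Cyr61 encodes a secreted matricellular protein of the same family. It had normalised counts of 77.5, 48.9, 117 and 142 in naive and 81.3, 53.5, 54.9 and 22.8 in cast libraries, and the groups overlapped at naive replicates 1 and 2. The log2 difference was -0.86 (95% interval -1.80 to 0.07, limma adjusted p = 0.224), and Cyr61 passed in 0 of 22 alternatives. The log2 ratio of Ctgf to Cyr61 differed by -0.95 between groups (two-sided exact permutation p = 0.2, adjusted 0.286), so that a larger fall of Ctgf than of Cyr61 was not shown. Ctgf stood at 268 and Cyr61 at 47.6 per kilobase in naive libraries, and at 83.3 and 26.3 in cast libraries.

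Ankrd1, a target known above all from heart and stretched muscle, was too low to test. Its recovered reads were 1, 4, 3 and 0 in naive and 11, 2, 0 and 3 in cast libraries, and its mean of 0.475 normalised counts lay under the filter of 0.5. The highest value, 1.81 normalised counts, was in cast replicate 1. Ankrd2, its relative in skeletal muscle, had 8 naive and 2 cast reads. Ankrd23, the remaining muscle ankyrin repeat gene, had a log2 difference of -0.99 (limma adjusted p = 0.216), and it passed without naive replicate 4 (-1.50, 0.00552), with array weights (-1.56, 0.00167) and with DESeq2 (-1.38, 0.0183). The log2 ratio of Ankrd1 to the mean of the muscle markers differed by 3.45, with an exact permutation p of 0.0286 (two-sided, the smallest that 70 assignments allow) and 0.0952 after adjustment. A ratio at that smallest p passes after adjustment only if most of the 10 ratios reach it, so the adjusted value decides nothing. The mean log2 level of the muscle markers themselves was 3.29 to 7.22 in naive and 1.76 to 4.21 in cast libraries.

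Across a wider list of 22 genes known as YAP targets, 20 were tested, 5 fell and 3 rose, and the median log2 difference was -0.30, with 6 positive and 14 negative. Among all tested genes 5.46% were called lower, 12% were called in either direction and 44.3% were negative. The list is not independent of the 10 members. It includes Ctgf, Cyr61, Ankrd1, Amotl2, Axl, Ptpn14 and Lats2, and each of these that was tested had a negative log2 difference. Of the genes of the list that fell, only Ccdc80 is not a member. Without naive replicate 3 (20 tested) or cast replicate 3 (21 tested), 3 fell and 2 rose. Besides Axl, Ptpn14, Ctgf and Amotl2, the fifth to fall was Ccdc80, which encodes a matrix protein, from 1192 ± 46.1 to 627 ± 88.5 normalised counts (SD, n = 4; log2 difference -0.93, limma adjusted p = 0.0120). Gadd45a, a stress-response gene that also rises in denervated muscle, went from 10.3 ± 4.29 to 52.8 ± 22.1 (2.25, 0.00438). Fjx1, a secreted relative of the Drosophila kinase four-jointed, went from 2.41 ± 1.88 to 8.91 ± 1.74 (1.66, 0.0140, and 0.81 with adjusted p = 0.158 under the muscle covariate). Dock5, a Rac activator, went from 25.2 ± 6.67 to 64.1 ± 21.9 (1.28, 0.0297), a call that was lost without naive replicate 2 (0.0534) or 3 (0.0655) or cast replicate 1 (0.0735), 2 (0.0853) or 3 (0.0884). The list's members thus changed in opposite directions.

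**Figure D3:**
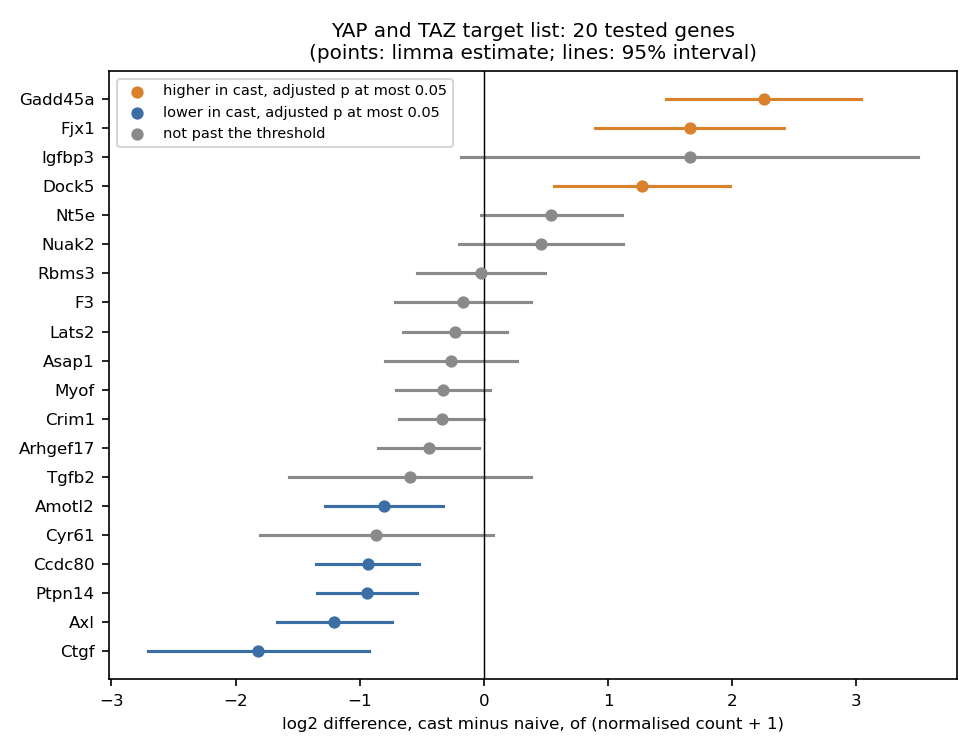
Log2 difference, cast minus naive, of normalised count + 1 for the 20 tested genes of the YAP target list, in order of the difference. Points are limma estimates, lines are 95% intervals and colour marks the adjusted p; 5 genes lie below 0 and 3 above it past the threshold, from Ctgf at -1.82 to Gadd45a at 2.25.

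Axl, a receptor tyrosine kinase of the TAM family that clears apoptotic cells and damps inflammation, fell. It had normalised counts of 574, 844, 686 and 761 in naive and 360, 363, 252 and 272 in cast libraries. The lowest naive value was well above the highest cast value. The mean went from 716 ± 115 to 312 ± 58.2 (SD, n = 4), 2.30-fold lower, with a log2 difference of -1.20 (95% interval -1.66 to -0.74, limma adjusted p = 0.00624). Gas6, the ligand of Axl, rose: 551, 570, 446 and 770 in naive and 1398, 2042, 1592 and 1742 in cast libraries. Every cast library was above every naive one for Gas6, and the log2 difference was 1.55 (95% interval 1.03 to 2.07, adjusted p = 0.00353). Per kilobase, Gas6 went from 229 to 665 while Axl went from 168 to 73.1.

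The other TAM genes did not pass: the log2 difference was 0.52 for the receptor Mertk (limma adjusted p = 0.321), -0.32 for the receptor Tyro3 (0.480) and 0.80 for the ligand Pros1 (0.155). With the muscle covariate Mertk (1.19, adjusted p = 0.046) and Pros1 (1.59, 0.0193) passed. Macrophages and fibroblasts both express Axl. Of 9 tested macrophage markers limma called 0, 2 had an unadjusted p under 0.05, edgeR called 0 and DESeq2 called 1 (Mrc1), and their summed level was 2033 to 3898 in naive and 2798 to 4141 in cast libraries. Without naive replicate 4, 3 of 10 tested were higher (Cd68, Fcgr1 and Marco). With the muscle covariate Mrc1 passed (1.42, adjusted p = 0.0155). Marco was at 0 in all naive libraries. Of 8 fibroblast markers 1 was higher (Lum) and 1 lower (Fn1), and 0 were at 0 in any library. Over all tested genes 12% were called in either direction. The Lum call was lost without cast replicate 3 (adjusted p = 0.0516). That of Fn1 was lost without naive replicate 1 (0.0922), 2 (0.098) or 3 (0.0722) or cast replicate 3 (0.118) or 4 (0.0814), with no filter (0.0763), with quantile normalisation (0.0898) and with the muscle covariate (0.153). The log2 ratio of Axl to the macrophage marker mean differed by -1.50, and that of Axl to the fibroblast marker mean by -1.32. In both ratios every cast library lay below every naive library. Each gave a two-sided exact permutation p of 0.0286, the smallest possible, and 0.0952 after adjustment over the 10 ratios. That misses the threshold, as any ratio would unless most of the 10 reached the smallest p, so the adjusted value decides nothing.

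The CCN family, to which Ctgf and Cyr61 belong, was split. Of 5 tested members of the family, 2 rose (Wisp2 and Wisp1) and 1 fell (Ctgf), with a median log2 difference of -0.86. Over all tested genes 12% were called in either direction. Wisp2, a CCN protein without the C-terminal domain of its relatives, had 76.4, 48.9, 44.8 and 54.3 normalised counts in naive and 229, 497, 575 and 596 in cast libraries, with no overlap. Its log2 difference was 2.99 (95% interval 2.29 to 3.70, limma adjusted p = 0.000621), the opposite direction to Ctgf. Per kilobase, Wisp2 went from 32.6 to 276 and Ctgf from 268 to 83.3. Wisp1 went from 3.41 ± 0.864 to 20.2 ± 12.8 (SD, n = 4), a log2 difference of 2.03 (adjusted p = 0.0226). Wisp1 missed the threshold when naive replicate 2 (0.056) or 3 (0.0649) or cast replicate 1 (0.0545) or 3 (0.0705) was left out, and with the muscle covariate (0.0662).

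Nov, the third CCN gene, had 65.5, 109, 95.7 and 140 normalised counts in naive and 101, 24.6, 11.9 and 20.3 in cast libraries, so that cast replicate 1 alone lay in the naive range. Its log2 difference of -1.78 did not pass (limma adjusted p = 0.0651). Nov passed without cast replicate 1 (-2.38, 0.00413) and with array weights (-2.08, 0.00296).

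**Figure D4:**
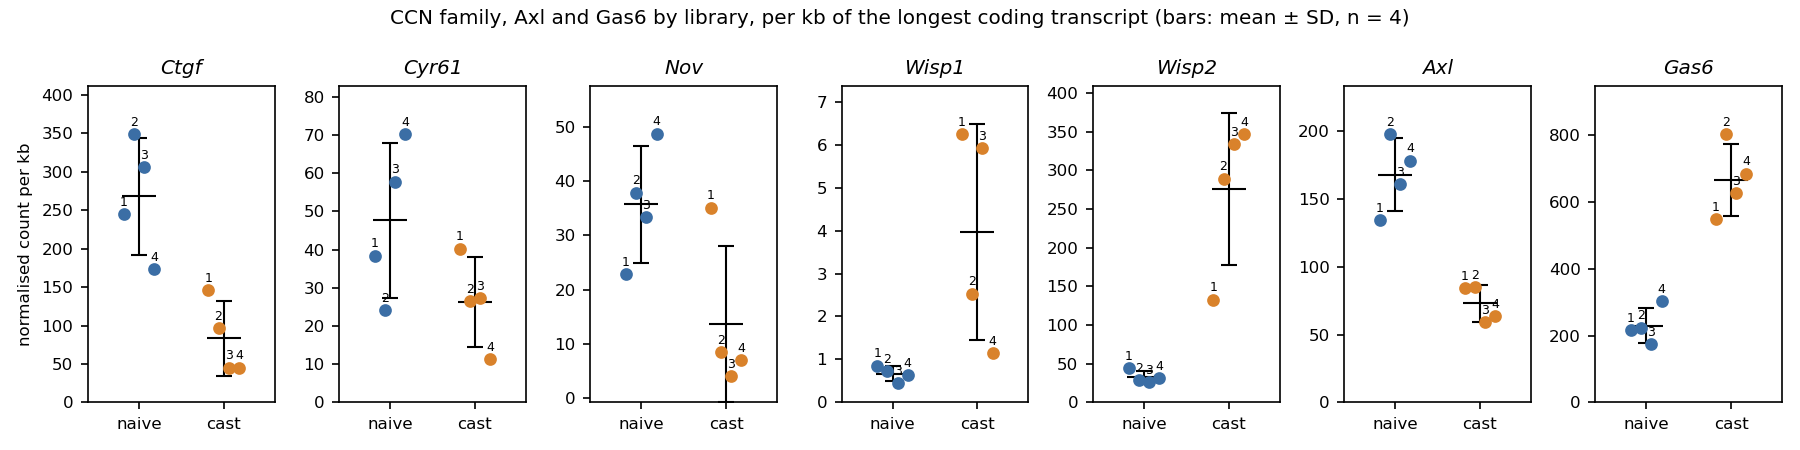
Normalised read counts per kilobase of the longest coding transcript (y axis, a scale of its own for each gene) of the CCN genes Ctgf, Cyr61, Nov, Wisp1 and Wisp2 and of Axl and Gas6. Points are libraries with their replicate number and bars show mean and SD (n = 4); Wisp2 and Gas6 have cast points above all naive points, and Ctgf and Axl have cast points below them.

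Ctgf and Cyr61 are also immediate early genes, induced within minutes by serum, stretch or tissue handling and read by SRF and AP-1 factors as well as by TEAD. Of 19 tested genes of a list of 20 immediate early genes, 10 fell and 0 rose, beside 5.46% of all tested genes called lower. Their median log2 difference was -1.44. Klf4 went from 299 ± 36.5 to 56.4 ± 16.9 normalised counts (SD, n = 4; log2 difference -2.42, limma adjusted p = 0.000299). Atf3 went from 66.5 ± 44.4 to 3.93 ± 0.828 (-3.52, 0.00185). Klf2 had a log2 difference of -1.98 (0.00244) and Egr3 of -2.53 (0.00252). By library, the list had a mean log2 level of 6.23, 5.61, 6.96 and 6.77 in naive and 5.02, 5.15, 5.21 and 4.45 in cast libraries, with naive replicate 2 the lowest of its group.

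Cyr61 and Ctgf differed in how their levels were ordered within the naive group. Cyr61 was lowest in naive replicate 2, where the immediate early list was lowest, and Ctgf was highest there. The log2 ratio of Cyr61 to the immediate early mean differed by 0.58 between groups (two-sided exact permutation p = 0.0571, adjusted 0.143) and that of Ctgf by -0.37 (p = 0.571, adjusted 0.6), or 0.03 without naive replicate 2. With the immediate early level as a covariate, limma called 0 genes in the whole table, so that this fit separates no member from the others. The estimate for Ctgf was then -1.90, for Axl -1.26, for Ptpn14 -0.63, for Yap1 -0.58 and for Amotl2 -0.13.

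**Figure D5:**
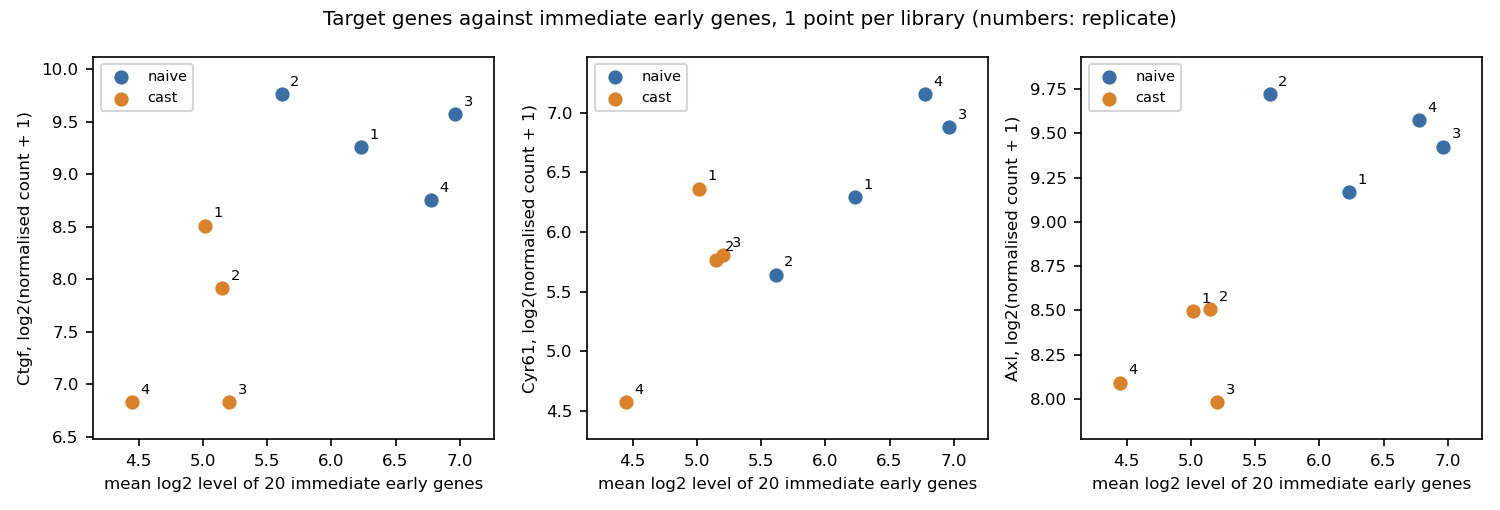
Log2(normalised count + 1) of Ctgf, Cyr61 and Axl (y axes) against the mean log2 level of 20 immediate early genes (x axis), each point 1 library with its replicate number. Naive replicate 2 has the lowest immediate early level of its group, the highest Ctgf and Axl values (868 and 844 normalised counts) and the lowest naive Cyr61 value (48.9).

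Genes of the actin cytoskeleton that SRF controls, a set often read beside YAP targets, showed no common direction: of 16 tested, 2 rose, 1 fell, and the median log2 difference was 0.22. The share called in either direction over all tested genes was 12%. Without naive replicate 4, 4 rose and 1 fell. Fhl2, a LIM protein that carries actin signals to the nucleus, went from 4.90 ± 0.582 to 14.6 ± 4.01 normalised counts (SD, n = 4; log2 difference 1.37, limma adjusted p = 0.00600). Cnn2, a calponin that binds actin, had a log2 difference of 1.11 (0.0392), which was 0.35 (0.457) with the muscle covariate and lost its call without naive replicate 1 (0.0806), 2 (0.0935) or 3 (0.104) or cast replicate 2 (0.0953) or 3 (0.118). Tpm2, a tropomyosin of muscle and contractile cells, went from 75.1 ± 12.5 to 43.2 ± 2.60 (-0.77, 0.0164), a call that was lost without naive replicate 2 (0.0566) or 3 (0.0556) or cast replicate 2 (0.0523) or 3 (0.0502), and with the muscle covariate (0.0994). Of 8 markers of pericytes and smooth muscle, 1 fell (Cspg4), and 2 without naive replicate 4 (Cspg4 and Des), with summed levels of 1042 to 1480 and 1033 to 1167.

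The genes whose pattern was most like that of each target are given as a description, by Pearson's r of log2(normalised count + 1) over the 8 libraries among genes with a mean of at least 10, without a test. Since the libraries fall into the groups compared, r after subtracting each group's mean is given beside it. For Ctgf they were Ski (0.985, within groups 0.946), Mapk9 (0.981, 0.956), Sh3d19 (0.977, 0.922) and Creb5 (0.976, 0.927). For Axl they were Ltbp4 (0.99, 0.923), Dennd5a (0.989, 0.911), Pitpnm2 (0.988, 0.905) and Rab11fip3 (0.988, 0.969). For Cyr61 they were Csrnp1 (0.949, 0.933), Cplx2 (0.915, 0.905), Dlg3 (0.914, 0.876) and Cilp (0.904, 0.868). For Ankrd1 they were Idua (0.944, 0.95), Lgr4 (0.937, 0.939), Usp54 (0.93, 0.927) and Abca6 (0.923, 0.922), and these rest on at most 11 Ankrd1 reads in a library. The genes nearest to Ctgf, Axl and Cyr61 were 12 different genes.

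In GENCODE M21 (GRCm38), Ctgf lies at chr10:24595442-24598683, Cyr61 at chr3:145646976-145649981, Ankrd1 at chr19:36111961-36120099, Amotl2 at chr9:102716672-102733418 and Axl at chr7:25757273-25788705. Ptpn14 lies at chr1:189728268-189876695, Lats2 at chr14:57689662-57758388, Yap1 at chr9:7931999-8004596, Wwtr1 at chr3:57455649-57575910 and Tead1 at chr7:112679318-112906807. Exons of Ctgf, Ptpn14 and Yap1 overlap those of a predicted gene on the opposite strand, and those of Lats2 a predicted gene on its own strand. The sources used here do not say whether counting used the strand, and a share of the reads of these 4 genes may belong to the overlapping gene.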

How the data were processed

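Posterior knee joint capsules of the mice were profiled in 4 naive and 4 cast libraries by RNA sequencing, with ribosomal RNA depleted from 200 ng of total RNA and paired 150-nt reads, per the labels' protocols. The protocol text names Trimmomatic 0.38 and the human build hg38 with Bowtie2 in RSEM, whereas mm10, edgeR, RSEM, Bowtie2 and Trimmomatic 0.36 are in the submitters' processing notes; the symbols are those of mouse genes. The values the authors deposited are signal, a normalised read count of each gene in each library. Within a library 100% of values were whole multiples, within 0.01, of what 1 read is worth, so whole reads were recovered. The smallest sum of a gene over the libraries was 8.

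Values were taken as log2(value + 1), a mean of 0.5 or more was required of a gene, and groups were compared with limma-trend (limma 3.58.1, R 4.3.3) with Benjamini-Hochberg adjustment at 0.05 over all 15120 genes. The 10 log2 ratios were compared by two-sided exact permutation. With 4 libraries in each group, a ratio can pass after adjustment only if most of the 10 reach the smallest p of 0.0286. Alternatives were other pseudocounts, filters and scalings, limma without a trend, array weights, covariates, a replicate block, leaving out each library in turn, cast replicates 1 and 2 left out together, and edgeR 4.0.16 and DESeq2 1.42.0 on recovered reads. The fitting procedure was tested on simulated data.

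The members, lists, ratios and alternatives were chosen with earlier results of these data known. Named genes were all members, those of each list past the threshold (at most 4), a fixed set of relatives, and the 4 genes most like Ctgf, Cyr61, Ankrd1 and Axl. Symbols were matched to GENCODE M21 for position and transcript length, and promoters were taken from RefSeq (GRCm38.p6). Per-kilobase levels divide by the longest coding transcript.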

Additional observations from a re-analysis of the deposited data

Results flagged for a closer look

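In 70 groups of 4 libraries (35 named genes in each of both groups) the distance of the highest or lowest library from the nearest other was set against Dixon's 95% critical value, which chance alone passes in about 1 group in 20. In 4 groups a library stood apart. Tead1 in cast replicate 1 had a normalised count of 246.7, where the other cast libraries had 90.8 to 116. Ywhag in naive replicate 1 had 324.0, where the others had 427 to 446. Fhl2 in naive replicate 2 had 4.033, where the others had 5.13 to 5.27. Ankrd2 in naive replicate 1 had 1.055, where the others had 0 to 0.161.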

How the results depend on the processing

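The count of members that were lower, 5, was 0 with the immediate early level as a covariate, 3 with the muscle marker level as a covariate, 3 without cast replicates 1 and 2 together, and 2 to 5 with each library left out in turn. The count of members that were higher, 0, was 1 with the muscle covariate (Tead1). The 5 members that were lower stayed negative in all 22 alternatives. Of those that did not pass, the estimate changed sign, without passing, for Cyr61 (-0.86) with the immediate early covariate (0.93), for Wwtr1 (-0.20) with the muscle covariate (0.11) and for Tead1 (0.41) with the immediate early covariate (-0.26) and array weights (-0.02). Axl and Ptpn14 lost their calls with the immediate early covariate alone. Over all genes, 826 were lower and 984 higher. With array weights these were 1817 and 2168, and on recovered reads 937 and 1102 with edgeR and 1290 and 1464 with DESeq2. They were 1336 and 2769 with the muscle covariate and 0 and 0 with the immediate early covariate. Without cast replicates 1 and 2 they were 343 and 374, and with each library left out 406 to 1283 and 510 to 1382. Deviations from the group means of same-numbered libraries correlated at 0.0797, 0.0353, -0.0571 and -0.0214. So few values cannot settle whether replicate numbers pair the libraries. With the replicate block 3 members were lower, with 589 genes lower and 782 higher over the whole table. Amotl2 (limma adjusted p = 0.0969) and Yap1 (0.0991) lost their calls in that fit. The median log2 difference of all genes, 0.07, was 0.06 with median-of-ratios scaling and -0.03 with quantile normalisation, a shift of -0.09. The shallow naive replicate 4 limits low genes, and Ankrd1 was not detectable above its floor of 3 reads in most libraries. The cause of these changes was not tested.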

Other observations

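Among the 4 cast libraries, replicate 1 held the highest value of 7 of the 10 members (Ctgf, Cyr61, Ankrd1, Lats2, Yap1, Wwtr1 and Tead1) and the lowest of 0, and replicate 2 held the highest of the other 3. Over all tested genes replicate 1 was the highest of the cast libraries for 30.4% and the lowest for 33.8%. Igfbp3, a secreted binding protein of insulin-like growth factors on the YAP target list, was chosen here after its values were seen: it had 384 normalised counts in cast replicate 1 and 17.1 to 47.7 in the other cast libraries, against 12.6 to 20.1 in naive libraries, with a log2 difference of 1.66 (limma adjusted p = 0.238).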
